A study of Ovis aries with 16 samples.

Results

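The comparison described here sets the amnion of fetal sheep whose urine was drained without replacement (UD) against that of control fetuses (C). It takes 8 of the 16 RNA-seq libraries of the study, 4 in each group, chosen by the treatment named in the labels. All 16 animals were pregnant sheep with a single fetus, and gestation had lasted 121 ± 0.5 days (mean ± SE) when catheters were placed, where sheep reach term at 145 to 150 days. Every animal, the controls included, carried catheters in maternal and fetal vessels, in the amniotic fluid and in the fetal bladder. In UD the urine was led away for 2 days and nothing was put back. In the controls the fluids were left alone for the same time. The UDR animals also had urine drained, with lactated Ringer's solution returned in the same volume. The IA animals kept their urine and received the same salt solution in the amniotic cavity, 2 liters each day. Amnion was taken straight after the 2 days, and 1 library was made for each animal.

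The amnion is the inner fetal membrane, a layer of epithelium on a thin bed of connective tissue, and it has no vessels of its own. Fetal urine is a main source of amniotic fluid in late gestation, and swallowing by the fetus removes much of it. Intramembranous transport, the passage of a further part through the amnion to vessels of the fetus, is thought to run largely in vesicles within the epithelial cells. Draining urine takes away inflow and urinary solutes together, and the comparison asks what this does to the transcripts of the membrane.

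The 8 libraries of C and UD held 12307412 to 18553674 counts, and 16281 to 17135 gene IDs had at least 1 count in them. A column name gives the sequencing lane. All 4 controls, UD 1 and UD 2 were in lane 1, and UD 3 and UD 4 in lane 2. The table gives Ensembl gene IDs and does not pair them with names, and none of the 25197 IDs matched the reference gene table. Genes of vesicular transport and markers of amnion epithelium or other cell types could therefore not be looked up, and the tissue label was not checked against markers. Results are given by gene ID, by abundance and by animal. Levels are given as CPM, counts scaled to the size of the library, after adjustment by TMM, a method that sets the libraries to a common level over most genes.

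No gene passed the test between UD and C. Over 13569 genes with a CPM of 1 or more in at least 4 of the 16 libraries, edgeR's quasi-likelihood test called 0% of genes (0 genes) at an adjusted p under 0.05, and the smallest adjusted p was 0.909. In 722 genes (5.32%) the unadjusted p was below 0.05. Most of these leaned upward, with 618 (4.55%) higher in UD and 104 (0.766%) lower. An upward lean was also seen against the same controls in UDR, with 571 higher and 247 lower, and in IA, with 501 and 79. The controls are shared, so these leans are not independent of each other. For UD with C, DESeq2 called 12 genes, 9 higher and 3 lower. Limma-voom with sample quality weights called 3278 (1827 higher and 1451 lower), and limma-voom with equal weights called 0. With the 2 lane 1 UD libraries alone against the controls, 1755 genes had an unadjusted p under 0.05 and edgeR again called 0. With all C and UD libraries but without UDR and IA, 1156 genes did and 0 were called. Both fits took the spread from fewer libraries than the 16 behind the 722. Single libraries moved these numbers: the 722 became 242 without UD 1, 1252 without UD 3, 457 without C 2 and 340 without C 3. The 3278 became 0 without UD 1 or without UD 4, and 955 without C 2.

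The p-values were spread almost evenly, but not in both directions alike. The interval from 0 to 0.05 held 722 genes, and each of the other 19 intervals of that width held between 563 and 783. The genes higher in UD were most frequent at the lowest p-values, 618 in the first interval against 259 to 492 in the others. The genes lower in UD were least frequent there, 104 against 169 to 453.

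**Figure D1:**
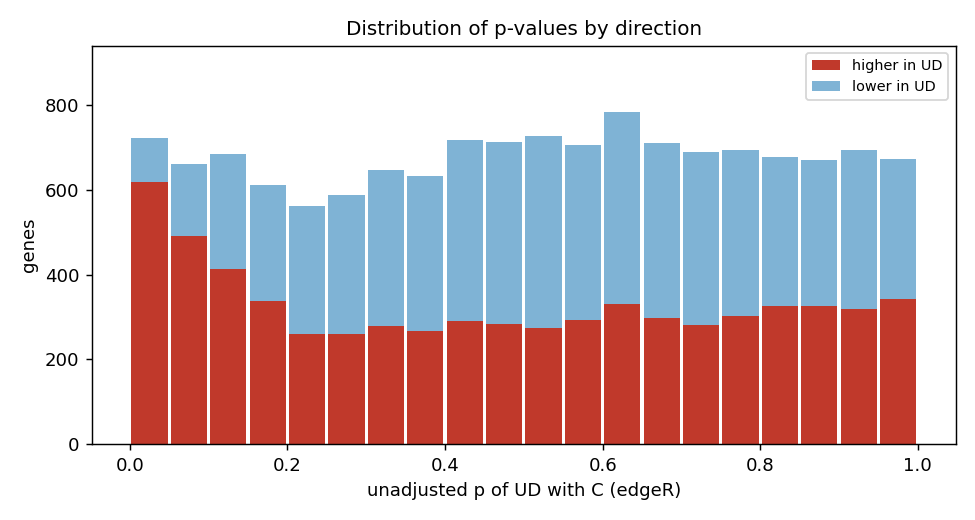
Number of genes (vertical axis) by unadjusted p of UD with C from edgeR (horizontal axis, intervals of 0.05), stacked as higher (red) and lower (blue) in UD. The first interval holds 722 genes, 618 of them higher, and the other intervals hold 563 to 783.

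The bulk of the transcriptome lay close to the controls while an upper tail reached far. The median log2 fold change was -0.01, with 6598 genes above 0 and 6971 below. The 5th percentile was -0.63 and the 95th 1.94. A fitted change above 2-fold was found for 1517 genes (11.2%) upward and for 232 (1.71%) downward. Against the same controls these numbers were 964 and 573 in UDR and 1299 and 368 in IA. Averaging log2 CPM over animals gives a single high library less weight. The prior count of 2 in log2 CPM also draws changes of low-count genes toward no change. For UD with C this average put 1294 genes upward and 300 downward. Without UD 1 these counts were 910 and 294, without UD 4 they were 1155 and 386, without UD 2 1526 and 438, and without UD 3 1699 and 556. The upper tail was longer than the lower one whichever UD animal was left out, but not in every animal taken alone. Against the control mean, 2511 genes lay more than 2-fold higher and 1537 lower in UD 1, 1970 and 577 in UD 4, 1392 and 1249 in UD 2, and 648 and 1111 in UD 3.

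The tail was widest among genes of low abundance, where the fitted changes were also least precise. Their median SE was 0.60 under 10 CPM, 0.33 between 10 and 100 CPM and 0.35 at 100 CPM or more. A low gene can also pass the filter through the group in which it is high. Of 4310 genes with a mean under 10 CPM over the 16 libraries, 902 were fitted above 2-fold higher and 172 above 2-fold lower, and the median log2 fold change was 0.11. In the 7316 genes between 10 and 100 CPM the numbers were 501 and 51, with a median of -0.04. In the 1943 genes at 100 CPM or more they were 114 and 9, with a median of -0.07. The share with an unadjusted p under 0.05 and higher in UD was 6.71%, 3.54% and 3.60% from the low to the high class, and the share lower in UD was 0.998%, 0.738% and 0.36%. In every class the genes past 2-fold or with an unadjusted p under 0.05 were thus mostly higher in UD, although the median of the 2 upper classes lay slightly below 0. edgeR called no gene in any class.

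**Figure D2:**
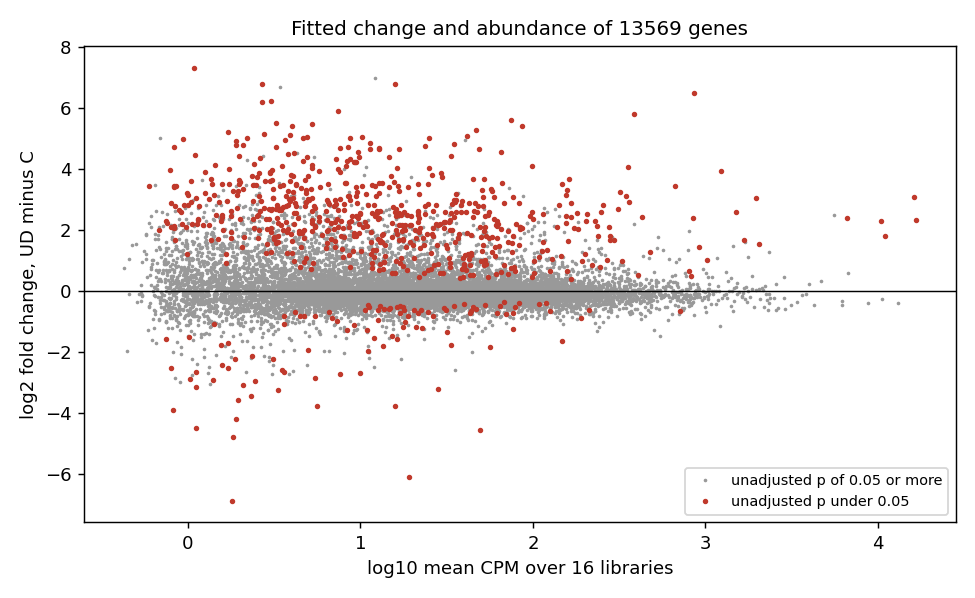
Log2 fold change of UD minus C (vertical axis) against log10 of the mean CPM over 16 libraries (horizontal axis), 1 point per gene. Red points are the 722 genes with an unadjusted p under 0.05, of which 618 lie above 0; all p-values are from edgeR, which gave no adjusted p under 0.05.

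Values in every library follow for 4 genes, the 2 with the smallest p in each direction. In each of the 4, every UD library lay on one side of every control. None was called by edgeR, each with an adjusted p of 0.909, and they were picked from 13569 genes for their small p. Limma-voom with sample quality weights called all 4, with adjusted p of 0.00429 for ENSOARG00000012952 and ENSOARG00000016237, 0.0123 for ENSOARG00000016781 and 0.0338 for ENSOARG00000004990, but its calls rested on UD 1 and UD 4, without either of which it called 0 genes. DESeq2 called ENSOARG00000016781 (adjusted p = 0.0457) and ENSOARG00000004990 (adjusted p = 0.0251), and gave 0.0729 for ENSOARG00000012952 and 0.0818 for ENSOARG00000016237. Limma-voom with equal weights called none of the 4.

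ENSOARG00000012952 was higher in UD and had few counts in controls. Its level was 0.268, 0.0743, 0.214 and 0.171 CPM in C 1 to C 4, from 1 to 4 counts per library. In UD 1 to UD 4 it was 3.88, 1.64, 0.779 and 1.86 CPM. The lowest UD value, that of UD 3, stood above the highest control, C 1, so the groups did not overlap. The 4 UD libraries averaged 2.04 ± 1.31 CPM and the 4 controls 0.182 ± 0.0820 (SD, n = 4), and the log2 fold change was 3.43 (SE 0.89, 95% interval 1.52 to 5.34; edgeR adjusted p = 0.909). It reached 1 CPM in 5 libraries, 3 of UD, 1 of UDR and 1 of IA, so it entered the test partly through the group in which it was high. UDR ranged from 0.0736 to 1.04 CPM and IA from 0.125 to 1.46, so both overlapped the controls and UD. UD against UDR gave a log2 difference of 1.89 (SE 0.81, edgeR adjusted p = 0.543) and UD against IA 1.77 (SE 0.81, edgeR adjusted p = 0.9998).

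ENSOARG00000016237 showed a smaller shift at a level with far more counts. It was at 46.8, 29.8, 29.8 and 29.4 CPM in C 1 to C 4. The UD libraries 1 to 4 held it at 67.2, 76.9, 49.0 and 56.9 CPM. UD 3 and C 1 came close without crossing, and the other 3 controls lay almost together. Mean levels were 62.5 ± 12.2 CPM with drainage and 34.0 ± 8.54 without it (SD, n = 4), and the fitted log2 change was 0.88 (SE 0.23, 95% interval 0.39 to 1.37; edgeR adjusted p = 0.909). In the other treated groups it was also at or above the level of most controls, from 57.6 to 76.7 CPM in UDR and from 41.1 to 73.1 in IA. Against the same controls the log2 fold change was 0.94 (SE 0.23, edgeR adjusted p = 0.732) in UDR and 0.64 (SE 0.23, edgeR adjusted p = 0.9996) in IA. The controls are shared, so these 3 changes are not independent of each other. UD and UDR differed by -0.06 (95% interval -0.54 to 0.43).

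ENSOARG00000016781 had the smallest p of all genes, with the controls split. C 2 and C 3 held 6.09 and 6.13 CPM, and C 1 and C 4 held 0.738 and 0.854. The UD libraries 1 to 4 were at 0.492, 0.566, 0.425 and 0.300 CPM, from 5 to 9 counts each. All UD values lay below all controls, but C 1 and C 4 were nearer to UD than to the other controls. The log2 fold change was -2.93 (SE 0.70, 95% interval -4.42 to -1.45; edgeR adjusted p = 0.909). UDR and IA were also low, at 0.560 to 1.29 and 0.438 to 1.26 CPM. UD against UDR gave -0.93 (SE 0.67, edgeR adjusted p = 0.677). The gene passed the filter with 4 libraries at 1 CPM or more, 2 of them controls and none of them UD.

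ENSOARG00000004990 was lower in UD with less split controls. It was at 8.45, 2.75, 12.8 and 17.0 CPM in C 1 to C 4 and at 1.11, 2.01, 1.77 and 0.719 CPM in UD 1 to UD 4. The gap between the groups lay between C 2 and UD 2. Drained animals averaged 1.40 ± 0.595 CPM and controls 10.2 ± 6.08 (SD, n = 4), a fitted log2 change of -2.86 (SE 0.70, 95% interval -4.36 to -1.37; edgeR adjusted p = 0.909). UDR spanned 2.36 to 15.5 CPM, all above UD. The log2 difference of UD against UDR was -2.29 (SE 0.69, edgeR adjusted p = 0.500), and that of UD against IA was -1.21 (SE 0.67, edgeR adjusted p = 0.9998). IA, at 1.33 to 6.07 CPM, overlapped UD.

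**Figure D3:**
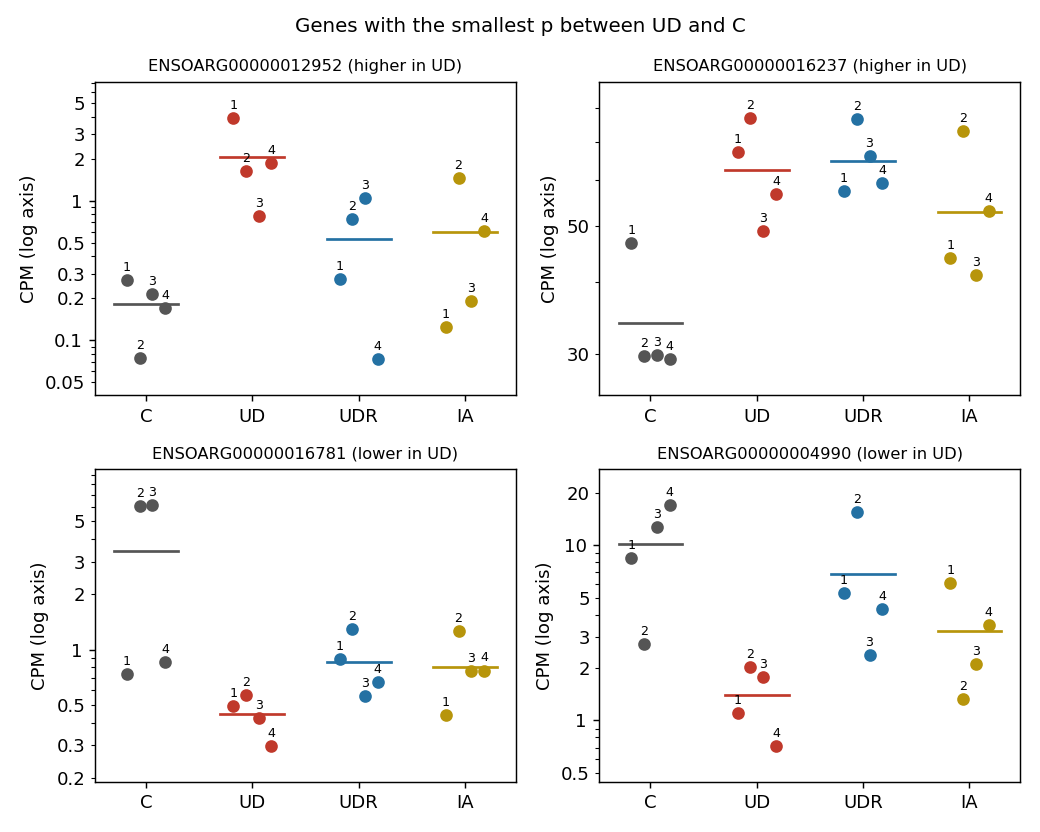
CPM on a log axis in each library of C, UD, UDR and IA (horizontal axis) for the 4 genes described by library, 2 for each direction of UD against C. Points carry the replicate number and bars are group means; the 4 UD points lie apart from the 4 C points in every panel, as for ENSOARG00000016237 at 49.0 to 76.9 CPM against 29.4 to 46.8.

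The complete separation seen in these 4 genes was met in 379 of 13569 genes, or 2.79%. A random split of 8 libraries into 4 and 4 separates a gene in 2.86% of cases, 1.43% in each direction. The total was thus close to the average over such splits. Genes vary together between libraries, so the number from a single split can lie far from that average, and the closeness decides nothing. In 251 of the 379 genes (1.85% of those tested) all UD libraries lay above all controls, and in 128 (0.943%) below. The higher ones had a median log2 fold change of 1.76, 163 exceeded 2-fold, and 157 had an unadjusted p under 0.05. The lower ones had a median of -0.62, and 30 exceeded 2-fold. Most gaps were narrow: the nearest UD and C libraries were a median of 0.17 apart in log2 CPM in the higher genes and 0.11 in the lower. A gap of more than 2-fold was left in 14 higher genes and 1 lower gene. By abundance, 96 of the higher genes were under 10 CPM (2.23% of that class), 110 between 10 and 100 (1.5%), and 45 at 100 CPM or more (2.32%).

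The 4 drained animals took very unequal parts in the upward lean. Among the 618 genes higher in UD at an unadjusted p under 0.05, UD 1 was the highest UD library in 514, UD 4 in 61, UD 2 in 29 and UD 3 in 14. Their median distance from the control mean was 3.47 in log2 CPM in UD 1 and 2.65 in UD 4, but 0.89 in UD 2 and 0.58 in UD 3. The 104 lower genes were shared more evenly, with median distances of -1.11, -0.85, -0.66 and -1.02 in UD 1 to UD 4. Both sets were chosen by the same comparison, so these values describe them and test nothing. Of the 618 higher genes, 157 (25.4%) had all 4 UD libraries above all controls, and of the 104 lower genes, 32 (30.8%) had all 4 below. Whether a higher level reflects more cells of a kind or more RNA per cell cannot be told apart in whole tissue.

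Each library was then set against the controls on its own. A gene counted as outside when it lay more than 2-fold above the highest or below the lowest of 3 controls, averaged over every set of 3 that did not hold the library itself. UD 1 had 1643.75 genes above and 729 below, UD 4 1111.75 and 186, UD 2 537.5 and 629.5, and UD 3 180.25 and 345.5. Controls were not all quiet by this measure. C 1 had 1019 genes above and 666 below the other 3 controls, whereas C 2, C 3 and C 4 had 82, 76 and 219 above and 73, 441 and 238 below. UD 3 therefore lay within the span of the controls on both counts, and C 1 exceeded UD 2 on both. The mean number above was 868.3 ± 643.8 in UD and 349 ± 451.5 in C, and the mean number below 472.5 ± 250.8 and 354.5 ± 256.5 (SD, n = 4), differences smaller than the spread between UD animals.

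**Figure D4:**
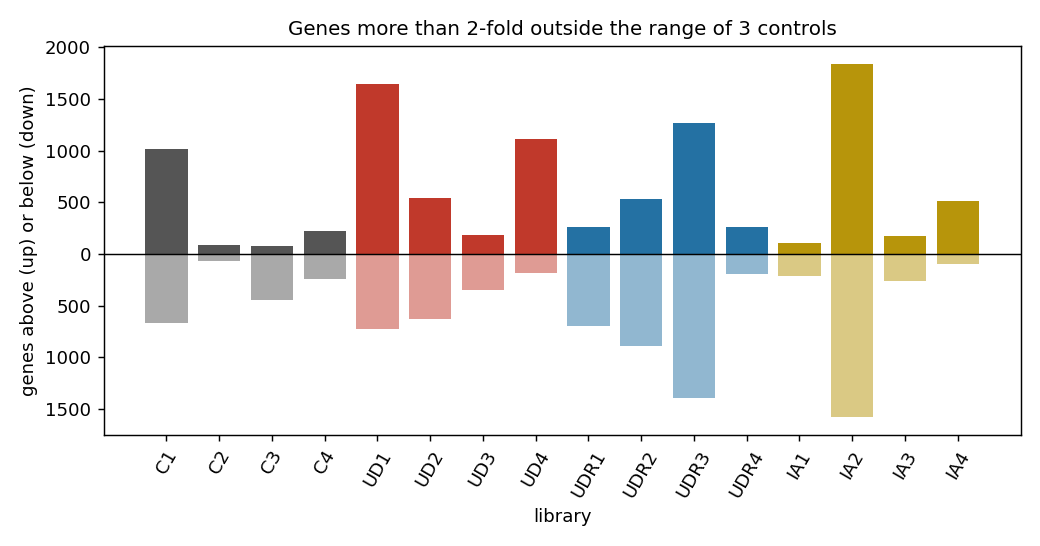
Genes more than 2-fold above (upward bars) or below (downward, paler bars) the range of 3 controls in each of the 16 libraries, coloured by group. UD 1 and UD 4 reach 1643.75 and 1111.75 genes above, UD 3 stays at 180.25, and C 1, a control, reaches 1019.

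Against the range of all 4 controls, a gene that one drained animal had outside was seldom outside in all. In 1768 genes at least 1 UD library was more than 2-fold above every control. Of these, 878 were above in 1 UD library, 743 in 2, 133 in 3 and 14 in all 4. Pairs were mostly a single pair: 696 of the 743 were above in UD 1 and UD 4 and in no other UD library, against 27 in UD 1 and UD 2 and 10 or fewer in each other pair. Downward, 1130 genes were outside in at least 1 UD library, 962 of them in 1 animal, 147 in 2, 20 in 3 and 1 in all 4. Genes below in a single animal were mostly those of UD 1, with 404, and UD 2, with 365. Above the controls in 3 or more libraries of a group were 147 of the 13569 genes for UD, 24 for UDR and 13 for IA. Below them were 21, 38 and 8. These counts share the controls, and whether the groups differ in them was not tested.

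Distances over all tested genes show the same unevenness. Taken as the root mean squared difference in log2 CPM, the distance between 2 libraries had a median of 0.857 over the 6 pairs within C (0.702 to 1.23) and of 1.30 within UD (0.747 to 1.51). UD 1 and UD 4, which were in different lanes, were the closest UD pair at 0.747. UD 2 and UD 3 were 1.28 apart. The 16 pairs of a UD with a C library had a median of 1.21 (0.763 to 1.58), a median below that of the pairs within UD. UD 3 was nearest to the controls, with a median of 0.941, followed by UD 4 with 1.17, UD 2 with 1.24 and UD 1 with 1.48. Within UDR the median was 1.43 and within IA 1.29, both also above that within C.

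Gene by gene, UD libraries varied more than controls in 67.5% of genes. All controls were in lane 1, and UD lay in lanes 1 and 2. In the SD and the distances within UD, variation between lanes and between animals therefore cannot be told apart. The median SD of log2 CPM was 0.55 in UD and 0.41 in C (n = 4 libraries each), and it was 0.58 in UDR and 0.47 in IA. The SD was above that of C in 71.5% of genes in UDR and in 59.96% in IA. Among genes under 10 CPM the median SD was 0.79 in UD and 0.60 in C, and among genes at 100 CPM or more 0.47 and 0.32.

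The most abundant transcripts held a larger part of the counts in each drained animal than in any control, a difference that did not pass after adjustment. The 10 most abundant genes of each library held 9.32%, 8.95%, 7.28% and 8.33% of its counts in C 1 to C 4, and 21.3%, 15.01%, 10.6% and 17.1% in UD 1 to UD 4. Every UD library lay above every control, UD 1 highest and UD 3 nearest to the controls. The means were 16.01% ± 4.46 in UD and 8.47% ± 0.891 in C (SD, n = 4), a difference of 7.54 percentage points (two-sided exact permutation p = 0.0286, the smallest that 4 against 4 allows, adjusted p = 0.08 over 7 library measures). Within lane 1 UD 1 and UD 2 were both above all 4 controls. Without UD 1 the difference was 5.77 points.

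The same separation over 100 genes is not a further result. The 10 genes lie within the 100, and the difference was 7.14 percentage points for the 100, against 7.54 for the 10. The 100 most abundant genes also left no overlap between UD and C. They held 24.7% to 26.9% of counts in C, with a mean of 26.0% ± 0.924, and 29.6% to 38.5% in UD, with a mean of 33.2% ± 4.24 (SD, n = 4; exact permutation p = 0.0286, adjusted p = 0.08). Other treated groups reached into the same range: the share of the 10 most abundant genes was 7.42% to 11.7% in UDR and 9.66% to 22.7% in IA, so all IA libraries also lay above all controls. The lists of the 10 genes with the largest mean share shared 7 genes between C and UD. In the list of UD, 6 of 10 genes were fitted more than 2-fold higher, with log2 fold changes from -0.39 to 3.08 over the 10, and 2 of them had no overlap between the groups; 5 had an unadjusted p under 0.05 and 0 an adjusted one. Over all 13569 genes, 11.2% were fitted more than 2-fold higher, 2.79% had no overlap and 5.32% had an unadjusted p under 0.05. The list of 10 was chosen by its level in UD, which favors high fold changes, so its values are a description. Its combined share was 19.9% in UD 1, 14.7% in UD 2, 9.46% in UD 3 and 16.6% in UD 4, against 4.85% to 8.13% in C. The same list held 5.08% to 9.78% in UDR and 7.15% to 19.8% in IA, so both groups reached above UD 3. The highest of these was IA 2.

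**Figure D5:**
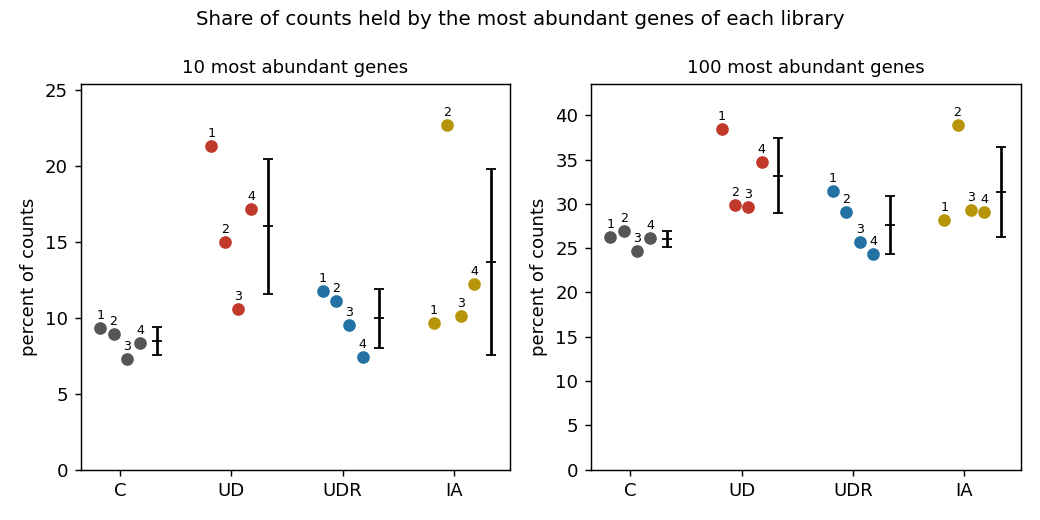
Percent of counts held by the 10 (left) and the 100 (right) most abundant genes of each library, by group; points carry the replicate number, and black marks give the mean and SD of 4 libraries. The UD libraries, at 10.6% to 21.3% for 10 genes, lie above all 4 controls at 7.28% to 9.32%.

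In the other 5 library measures the ranges of UD and C overlapped. The number of genes at 1 CPM or more was 12752.5 ± 227.6 in UD and 12638.2 ± 219.0 in C (SD, n = 4; exact permutation p = 0.514, adjusted p = 0.6). Genes under 10 CPM held 1.92% ± 0.409 of counts in UD and 1.82% ± 0.183 in C (exact permutation p = 0.714, adjusted p = 0.714). Genes from 10 to 100 CPM held 26.2% ± 1.39 and 28.8% ± 0.476, and genes at 100 CPM or more 71.8% ± 1.58 and 69.4% ± 0.553 (exact permutation p = 0.0571 and adjusted p = 0.08 for both). The median Spearman correlation with the control libraries, over genes, was 0.841 in UD 1, 0.8998 in UD 2, 0.941 in UD 3 and 0.914 in UD 4. In the controls, against the other 3, it was 0.902 in C 1 and 0.962 to 0.967 in the rest (exact permutation p = 0.0571, adjusted p = 0.08).

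The direct contrasts of UD with the other treated groups also gave no call. edgeR called 0 of 13569 genes between UD and UDR (0% of genes), and 1206 (8.89%) had an unadjusted p under 0.05. UD was the higher group in 857 of these and the lower in 349. Between UD and IA it called 0 (0%), and 97 genes, 0.715%, had an unadjusted p under 0.05. The other tools were not run on these contrasts here.

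The intervals of the fitted changes show which sizes of effect remain possible in the main fit. That fit took the spread from all 16 libraries, so the width also depends on UDR and IA. The median 95% interval of a log2 fold change reached 0.85 to either side, or 1.81-fold. For 42.3% of genes (5746) the whole interval lay within 2-fold of no change, for 9.21% within 1.5-fold, and for 76.2% within 4-fold. Among genes under 10 CPM the share within 2-fold was 16.1%, against 54.9% between 10 and 100 CPM and 53.1% at 100 CPM or more. A change of 2-fold or more was thus left possible for most genes, and most often for those under 10 CPM. Since each animal gave 1 library, variation of the animals and variation of dissection or library preparation cannot be told apart.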

How the data were processed

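RNA-seq counts of 16 amnion libraries were used, 8 of them (C and UD) in the comparison. The deposited table gives raw read counts by gene ID in 18 columns; 2 UDR libraries had 2 runs, which were summed. FastQC 0.11.3, HTSeq 0.6.1 and DESeq2 are named in the submitters' processing notes. For the aligner, build, annotation and strandedness, a statement is not given in the sources used here, so overlapping, antisense or near-identical genes are uncertain. The labels do not say that replicates are technical: each is 1 of 4 animals.

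Genes with a CPM of 1 or more in at least 4 of 16 libraries were kept (13569, with 99.84% of counts). edgeR 4.0.16 in R 4.3.3 (TMM, robust quasi-likelihood fit of all 16 libraries, group as the only term) gave two-sided p-values, adjusted by Benjamini-Hochberg over all genes. Standard errors and 95% intervals were derived from its F statistic. Log2 CPM used a prior count of 2. Library measures were compared by exact permutation of the 8 libraries; the correlation measure was recomputed for each split. DESeq2 1.42.0 and limma 3.58.1 were alternatives. The edgeR script was tested on simulated data. Genes named are the 2 higher and 2 lower with the smallest p, the rule for IDs without names; 19 gene lists could not be applied because 0 of 25197 IDs matched the reference table (ARS-UI_Ramb_v3.0). The comparison, rules and lists were chosen with earlier results of these data known.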

Additional observations from a re-analysis of the deposited data

Results flagged for a closer look

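Over 26 groups of 4 libraries, 4 held a library far from the other 3, where chance gives about 1 in 20, or 1.3. All 4 were controls. C 1 had 1019 genes more than 2-fold above the other 3 controls, whose own numbers were 76 to 219. Its Spearman correlation with the other controls had a median of 0.902, against 0.962 to 0.967 in C 2, C 3 and C 4. C 1 also held ENSOARG00000016237 at 46.8 CPM, against 29.4 to 29.8 in the other controls. In C 2, genes at 100 CPM or more held 70.2% of the counts of tested genes, against 69.0% to 69.2% in the other controls. These measures are not independent of each other. No library of UD stood apart from its group by this measure.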

How the results depend on the processing

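edgeR called 0 genes under every scaling, filter, lane and replicate setting tried and with each library left out (0 to 0). Its smallest adjusted p, 0.909 in the main fit, did move. It was 0.448 in a fit of C and UD alone, 0.156 with a replicate block in that fit and 0.120 in lane 1. With 1 library left out it was 0.510 (without UD 3) to 0.99999 (without UD 1). In DESeq2 12 genes passed, and 3278 in limma-voom with sample quality weights. The weighted count was 0 without UD 1 or without UD 4, 955 without C 2 and 4747 without UD 2; the weights were 5.07 for UD 4 and 4.78 for C 2, against 0.345 for UD 3 and 0.370 for UD 2. Genes at an unadjusted p below 0.05 numbered 722, but 1166 with no filter beyond 1 count, 1156 in a fit of C and UD alone, 1755 in lane 1, 1280 with a lane term over C, UD and UDR, 1293 without IA 2 and UDR 3 (added after the data were seen), 407 by limma-voom with equal weights and 5334 with sample quality weights; with 1 library left out it was 242 (without UD 1) to 1252 (without UD 3), and 457 and 340 without C 2 and C 3. In both lane settings the contrast rests on UD 1 and UD 2. The upward share, 85.6%, was 63.6% in lane 1, 72.7% with the lane term and 52.0% with sample quality weights; the cause was not tested.

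The number of genes without overlap, 379, was 464 to 1687 with 1 library left out, where fewer libraries make separation easier. The 4 named genes kept their direction in every fit that held them; ENSOARG00000012952 and ENSOARG00000016781 did not pass a filter on the 8 C and UD libraries. Library differences with 1 library left out were 5.77 to 9.35 points for 10 genes, 5.37 to 8.32 for 100 genes, 1.91 to 3.12 and -3.20 to -2.18 for genes at 100 CPM or more and from 10 to 100 CPM, 41.1 to 214.2 genes at 1 CPM, and -0.06 to -0.02 for the correlation; for genes under 10 CPM the difference of 0.10 was -0.052 to 0.28, reversed without UD 1. The mean number outside the controls in UD was 744.5 to 1139 above and 376 to 583.2 below without 1 control.

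The labels do not say that equal replicate numbers pair animals, so the numbers were not used as pairs. Deviations of same-numbered C and UD libraries from their group means had correlations of -0.07, -0.31, 0.32 and 0.33. For C 3 and C 4 the same-numbered UD library was the best match, and for C 1 and C 2 it was not. These values do not settle whether animals were paired. With a replicate block in the fit of C and UD, 0 genes passed in edgeR and 1036 had an unadjusted p below 0.05, against 1156 in that fit with no block.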
